A study of Homo sapiens with 20 samples.

Results

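Nodal signalling genes were followed as a set of 8: the ligands NODAL and GDF3, the co-receptor TDGF1, the secreted antagonists LEFTY1, LEFTY2, CER1 and FST, and the nuclear cofactor FOXH1. They were taken by name from the read count files, in which all 8 are present among 54435 features, and all 8 were among the 16792 features with enough reads to be tested. The cells are H1, an established human embryonic stem cell line, as unedited cells (WT) and as 2 clones, KO1 and KO2, in which DIGIT, a gene for a noncoding RNA that neighbours GSC (a homeobox gene), is knocked out by label. KO1, KO2 and WT cells were sampled at day 4 of culture in RPMI medium with B27 supplement and 50 ng/ml Activin A, which drives these cells towards endoderm, and KO1, KO2 and WT cells at day 0 in mTeSR1, a medium for undifferentiated stem cells. Poly(A) RNA was sequenced from 2 libraries in each of the 6 groups, 12 in all. Each knockout line is 1 clone, the nature of the edit is not given in the sources used here, and no feature carries a name of DIGIT, so the knockout is taken from the labels.

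NODAL is a ligand of the TGF-beta superfamily that signals through activin receptors, chiefly together with a co-receptor of the EGF-CFC family, such as TDGF1 (Cripto). The receptors activate SMAD2 and SMAD3, which act on DNA with FOXH1 and switch on NODAL itself as well as LEFTY1 and LEFTY2, so that the pathway induces both its ligand and its brakes. LEFTY1, LEFTY2 and CER1 (Cerberus) block NODAL outside the cell, CER1 also binds BMP and, in frog embryos, WNT ligands, while FST (follistatin) traps Activin. Activin uses the same receptors and SMADs as NODAL without the co-receptor and is not blocked by LEFTY proteins. In the embryo, high Nodal signalling specifies mesendoderm and definitive endoderm.

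Promoters of 4 members that were more abundant at day 4 are shown to set their sequences beside each other, as the 250 bases before the start site in RefSeq's GRCh38.p14 table, printed 5′ to 3′ on the gene's strand. NODAL is at chr10:70441682-70441931, minus strand, CER1 at chr9:14722734-14722983, minus strand, GDF3 at chr12:7695776-7696025, minus strand and FST at chr5:53480379-53480628, plus strand. Capitals mark every match, on either strand, to 4 short sequences that factors of this pathway are known to bind. CAGAC is the SMAD box, TGTNNATT a sequence of the kind FOXH1 binds, AGATAA the kind that GATA factors bind, and TAATCC the kind that bicoid-type homeodomains, such as those of GSC and OTX2, bind.
NODAL: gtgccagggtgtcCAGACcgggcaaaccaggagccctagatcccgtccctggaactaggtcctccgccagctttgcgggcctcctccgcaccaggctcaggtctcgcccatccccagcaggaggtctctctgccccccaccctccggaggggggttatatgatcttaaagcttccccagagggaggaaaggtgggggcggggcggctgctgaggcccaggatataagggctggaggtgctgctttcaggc
CER1: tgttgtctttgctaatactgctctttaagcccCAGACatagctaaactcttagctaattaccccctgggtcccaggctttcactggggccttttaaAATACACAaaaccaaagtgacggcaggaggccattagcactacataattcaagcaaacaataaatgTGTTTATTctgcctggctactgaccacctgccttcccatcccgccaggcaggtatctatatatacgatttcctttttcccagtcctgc
GDF3: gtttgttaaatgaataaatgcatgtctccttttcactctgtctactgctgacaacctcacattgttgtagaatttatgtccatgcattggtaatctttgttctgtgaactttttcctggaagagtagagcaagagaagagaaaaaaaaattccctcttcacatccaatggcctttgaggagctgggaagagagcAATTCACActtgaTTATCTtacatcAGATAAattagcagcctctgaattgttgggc
FST: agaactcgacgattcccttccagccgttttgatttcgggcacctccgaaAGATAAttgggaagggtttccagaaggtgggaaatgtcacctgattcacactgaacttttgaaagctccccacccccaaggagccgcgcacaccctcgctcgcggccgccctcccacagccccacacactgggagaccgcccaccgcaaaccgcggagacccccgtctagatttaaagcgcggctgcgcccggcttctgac
The SMAD box occurred once in NODAL, with its first base 237 bases before the start site, and once in CER1, 218 bases before it, and 38% of 35116 promoters of the same length hold one. The FOXH1-type sequence occurred in CER1 at 154 and 88 bases and in GDF3 at 56 bases before the start site, against 9.88% of promoters. The GATA-type sequence occurred in GDF3 at 43 and 31 bases and in FST at 201 bases, against 9.17% of promoters. TAATCC, present in 5.62% of promoters, was not among the letters of these 4 windows, and no match overlapped another. The promoters of TDGF1, listed under its newer symbol CRIPTO with 2 start sites, held none of the 4 sequences. These matches are descriptions of letters and were not tested as sites.

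Total counts were 9942016 to 21394547 per library. Levels are given as CPM, counts scaled to library size with edgeR's TMM factors, and changes as log2 fold changes from an edgeR quasi-likelihood fit to all 12 libraries, with p values adjusted by the Benjamini-Hochberg method over all 16792 features and called below 0.05. Whether replicates are separate cultures is not stated, so the spread behind these p values may be technical. KO1 day 0 replicate 2 stood apart from the other libraries on the fourth principal component of log2 CPM, at 33.3 against -21.6 to 5.52, and it also had the highest LEFTY1 and LEFTY2 levels of day 0, so results that turn on KO1 at day 0 are also given without it. WT day 0 replicate 1 lay at the other end of that component, at -21.6, with the next library at -7.38. The summed level of POU5F1, NANOG, SOX2, DPPA4 and ZFP42, pluripotency genes, was 1672 to 1799.6 CPM in KO1, 1618 to 1695 CPM in KO2 and 1655 to 1726 CPM in WT at day 0. The sum of 6 definitive endoderm markers (SOX17, FOXA2, CXCR4, GATA6, GATA4 and HHEX) at day 4 was 440.2 to 458 CPM in KO1, 66.3 to 84.3 CPM in KO2 and 602 to 688 CPM in WT, against 4.84 to 7.70 CPM over the day 0 libraries.

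Between day 4 and day 0 the ligand NODAL rose in every line, having been nearly silent at day 0. Its level at day 4 was 468 and 455 CPM in KO1, 382 and 416 in KO2 and 332 and 285 in WT. At day 0 it was 3.79 and 3.34 CPM in KO1, 3.47 and 2.94 in KO2 and 6.39 and 3.81 in WT, and no day 4 library came near any day 0 library. The change was log2 7.02, SE 0.15, adjusted p = 9.42e-14 in KO1, log2 6.96, SE 0.17, adjusted p = 4.88e-13 in KO2 and log2 5.96, SE 0.15, adjusted p = 4.3e-13 in WT by edgeR. GDF3, a second ligand that also works through activin receptors and TDGF1, rose by log2 2.93 in KO1, 2.86 in KO2 and 2.34 in WT. Its level at day 4 was 63.3 and 67.6 CPM in KO1, 76.7 and 69.2 in KO2 and 67.8 and 65.8 in WT, where KO1 and WT overlap and KO2 is slightly above them. At day 0 it was 8.68 and 8.54 CPM in KO1, 9.74 and 10.4 in KO2 and 12.01 and 14.1 in WT, where no line overlaps another.

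The antagonists rose as well, CER1 most. CER1 had 4536 and 4445 CPM in KO1, 967 and 765 in KO2 and 4188 and 3875 in WT at day 4, against 1.21 and 1.38 CPM in KO1, 5.43 and 1.08 in KO2 and 1.65 and 1.34 in WT at day 0. It was thus 3426-fold higher at day 4 in KO1, 262-fold higher in KO2 and 2722-fold higher in WT, on few day 0 reads, 53, 69 and 36 per pair of libraries. KO2 day 0 replicate 1 had the highest CER1 level of day 0, and the log2 change in KO2 was 9.64 without that library, against 8.03 with it. LEFTY1 at day 4 was 125 and 160.1 CPM in KO1, 134 and 128 in KO2 and 346 and 416 in WT, against 1.37 and 4.85 CPM in KO1, 1.03 and 1.37 in KO2 and 2.23 and 2.47 in WT at day 0. LEFTY2 at day 4 was 73.5 and 94.4 CPM in KO1, 116 and 113 in KO2 and 301 and 377 in WT, against 2.14 and 5.65 CPM in KO1, 1.69 and 1.86 in KO2 and 3.49 and 2.54 in WT at day 0. For both genes each WT library of day 4 was above every clone library, and every day 4 library was far above every day 0 library. The rise of LEFTY1 was log2 5.45 in KO1, 6.76 in KO2 and 7.33 in WT, and that of LEFTY2 was log2 4.38, 6.01 and 6.84 in the same lines. Without KO1 day 0 replicate 2 the rises in KO1 were log2 6.70 for LEFTY1 and 5.30 for LEFTY2, and without KO1 day 0 replicate 1 they were log2 4.88 and 3.90. FST rose by log2 1.88 in KO1, 2.95 in KO2 and 2.51 in WT.

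The co-receptor TDGF1 and the cofactor FOXH1 moved less than the ligands. TDGF1 was already expressed before differentiation, at 483 and 606 CPM in KO1, 489 and 517 in KO2 and 496 and 543 in WT at day 0. At day 4 it was 523 and 518 CPM in KO1, 489 and 487 in KO2 and 669 and 575 in WT. Its change was called in WT (log2 0.26, SE 0.10, adjusted p = 0.0395), and not in KO1 (log2 -0.06, adjusted p = 0.593) or KO2 (log2 -0.04, adjusted p = 0.734) by edgeR. Leaving out WT day 4 replicate 1 ended the WT call (adjusted p = 0.288), as did leaving out the first WT library of day 0 (0.193) or any of KO1 day 4 replicates 1 and 2 and KO2 day 4 replicate 2 (0.052 to 0.0538), and with upper-quartile scaling (0.1). In KO1 a fall of log2 -0.22 passed once KO1 day 0 replicate 1 was left out (adjusted p = 0.0192). FOXH1, which recruits SMAD2 and SMAD3 complexes to DNA, had 111 and 108 CPM in KO1, 83.3 and 89.2 in KO2 and 125 and 112 in WT at day 4, against 72.8 to 85.9 CPM over the day 0 libraries. It rose by log2 0.45 in KO1 (adjusted p = 0.000486) and 0.57 in WT (adjusted p = 9.79e-05), and its change of log2 0.19 in KO2 did not pass (adjusted p = 0.105). Over 18 alternatives the KO2 change was log2 0.127 to 0.25. It passed under 3 of them, among these the fits without either KO1 day 0 library. In the reference annotation FOXH1 overlaps KIFC2, and the strand setting of the counting is not known, so some of its reads may belong to that gene.

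Counted over the set, 7 of 8 members rose in KO1, 6 in KO2 and 8 in WT, and 0 fell in any line. Of all tested features 29.1% were higher and 29.3% lower at day 4 in KO1, 25% higher and 25.7% lower in KO2, and 24.3% higher and 25.4% lower in WT. The median log2 change of the members was 3.65 in KO1, 4.48 in KO2 and 4.23 in WT, and that of all tested features was 0.00233 in KO1, -0.00274 in KO2 and -0.00382 in WT.

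**Figure D1:**
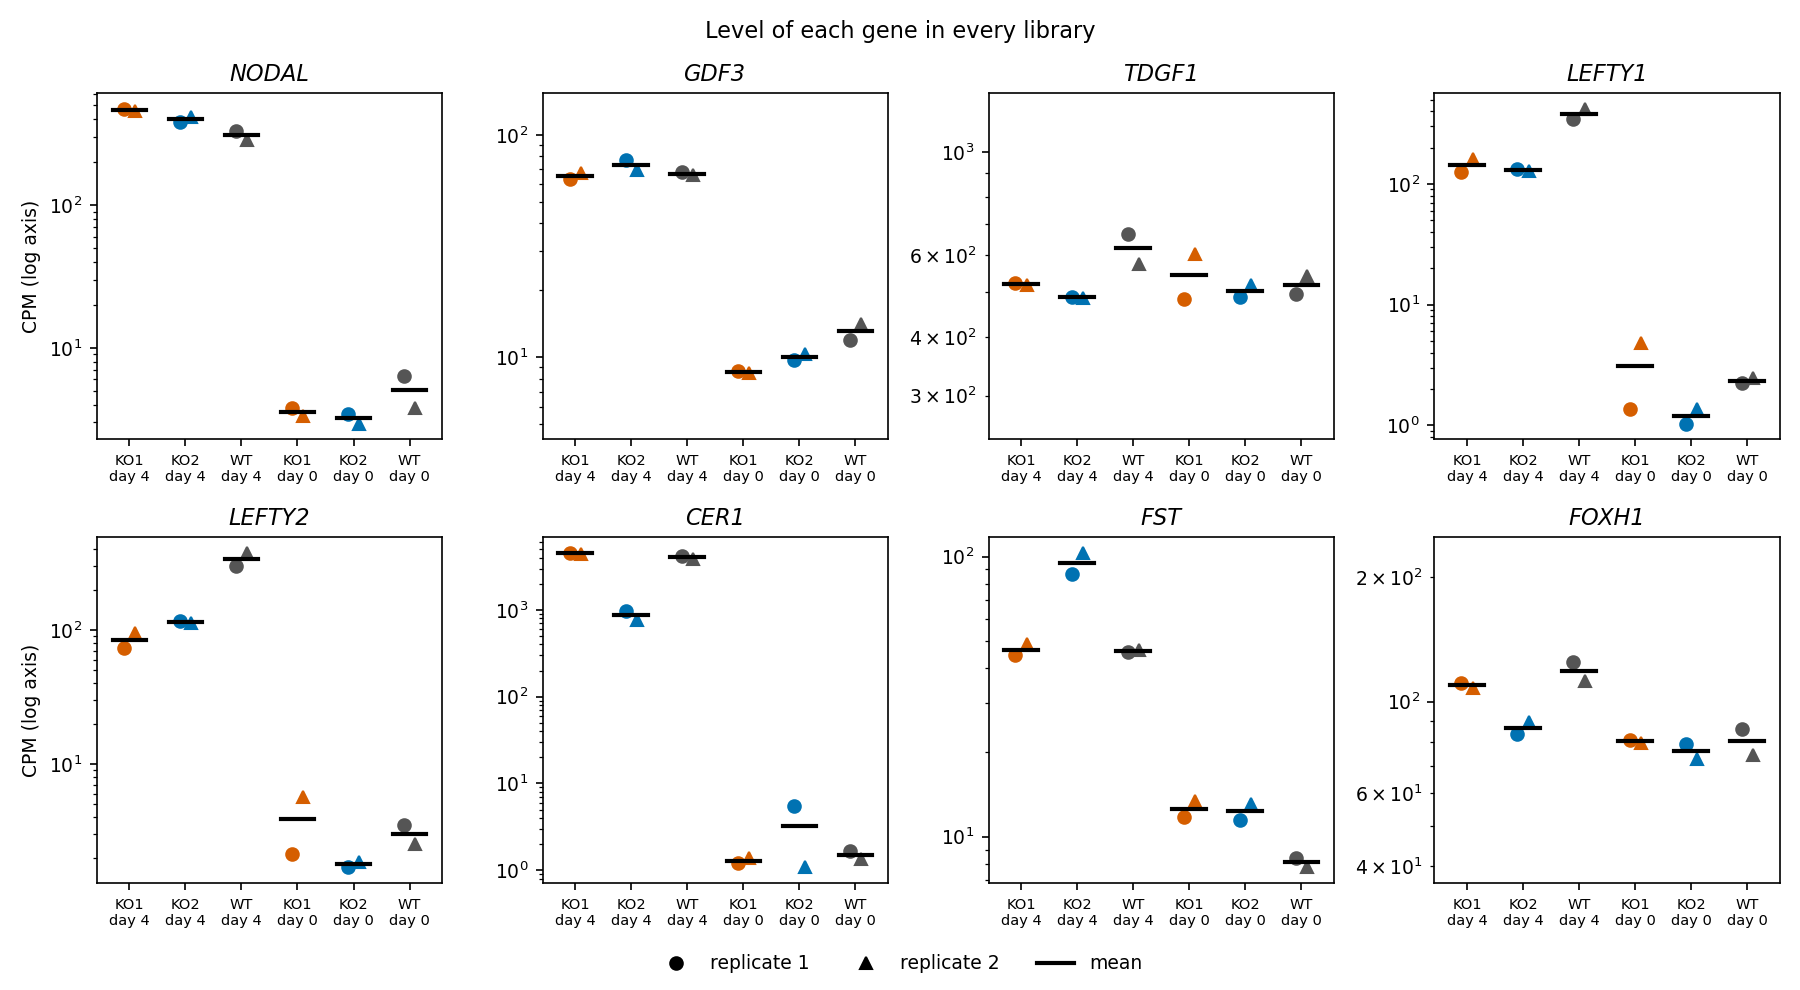
Level of each of the 8 genes in every library, in CPM on a log axis, for KO1, KO2 and WT at day 4 and then at day 0; circles are replicate 1, triangles replicate 2 and bars the mean. NODAL, LEFTY1, LEFTY2 and CER1 are far higher at day 4 in all lines, LEFTY1 and LEFTY2 are lower in both clones than in WT at day 4, and CER1 is lower and FST higher in KO2 alone of the day 4 groups.

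**Figure D2:**
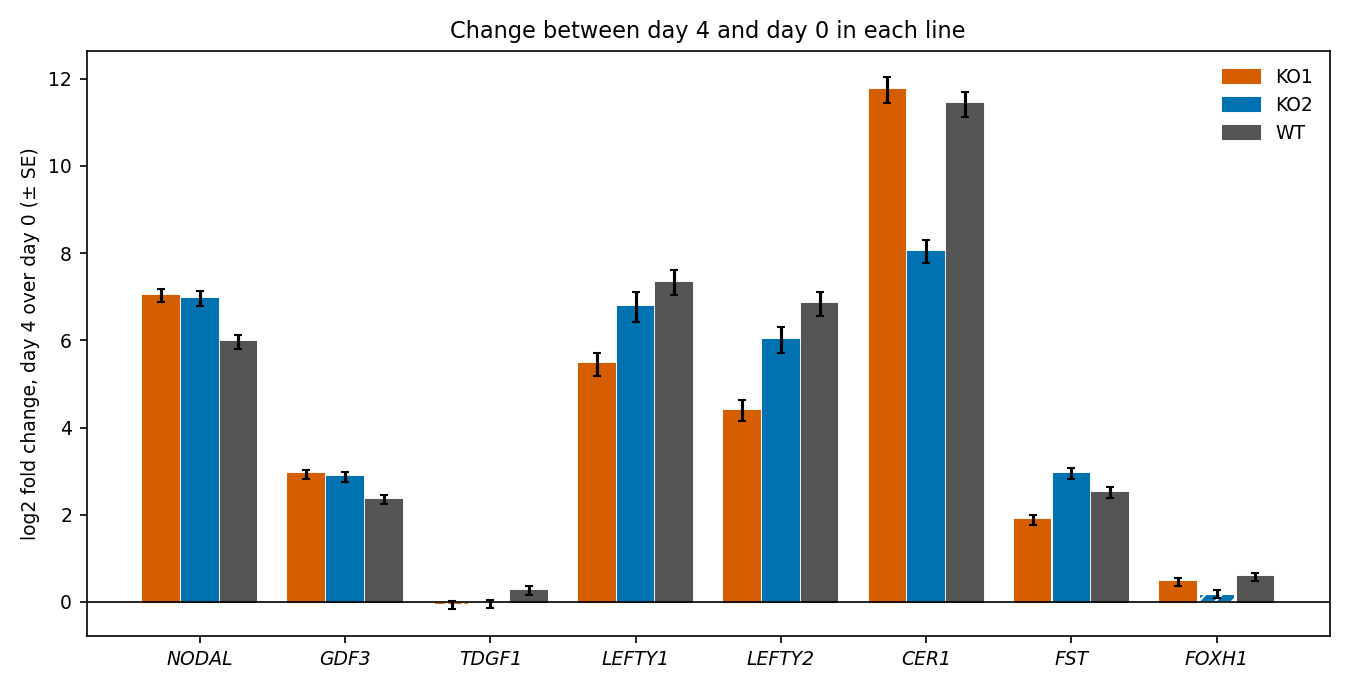
Log2 fold change of each gene, day 4 over day 0, in KO1, KO2 and WT from the edgeR fit, with error bars of 1 SE; hatched bars have an adjusted p of 0.05 or more. CER1 changed by log2 11.74 in KO1, 8.03 in KO2 and 11.41 in WT, and TDGF1 lies near 0 in each line.

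At day 4 both clones had less LEFTY1 and LEFTY2 RNA than WT. LEFTY1 averaged 142 ± 24.9 CPM in KO1, 131 ± 3.65 CPM in KO2 and 381 ± 48.8 CPM in WT (SD, n = 2 each), and LEFTY2 averaged 84.0 ± 14.8, 115 ± 1.99 and 339 ± 53.3 CPM in the same lines. Every clone library was below both WT libraries for each gene. LEFTY1 was 2.67-fold lower in KO1 (log2 -1.42, SE 0.19, adjusted p = 0.000112) and 2.91-fold lower in KO2 (log2 -1.54, SE 0.19, adjusted p = 2.8e-05), and LEFTY2 was 4.03-fold lower in KO1 (log2 -2.01, SE 0.18, adjusted p = 2.89e-06) and 2.96-fold lower in KO2 (log2 -1.56, SE 0.18, adjusted p = 1.55e-05) by edgeR. These calls held under every alternative tried. In bulk RNA, fewer cells that express a gene and less RNA of it per cell cannot be told apart, and the comparisons of KO1 and KO2 with WT share the same WT libraries.

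The ligand moved the other way. NODAL averaged 461 ± 9.62 CPM in KO1, 399 ± 23.6 CPM in KO2 and 308 ± 33.2 CPM in WT, and each clone library lay above both WT libraries. It was 1.497-fold higher in KO1 (log2 0.58, SE 0.11, adjusted p = 0.00132) and 1.29-fold higher in KO2 (log2 0.37, SE 0.10, adjusted p = 0.0156) by edgeR. The KO2 call was lost without WT day 4 replicate 2 (adjusted p = 0.206) or without KO2 day 4 replicate 2 (0.146), while the KO1 call held. GDF3 was called in neither clone, with log2 -0.03 in KO1 and 0.13 in KO2 (adjusted p = 0.878 and 0.342). The standard errors of these GDF3 differences were 0.09 and 0.09.

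The other antagonists separated the clones. CER1 was 4.66-fold lower in KO2 than in WT (log2 -2.22, SE 0.17, adjusted p = 2.4e-07) and close to WT in KO1 (log2 0.16, SE 0.16, adjusted p = 0.561). FST had 44.4 and 48.6 CPM in KO1, 86.6 and 103 in KO2 and 45.5 and 46.3 in WT, so that KO2 was 2.07-fold above WT (log2 1.05, SE 0.10, adjusted p = 3.99e-06) and KO1 overlapped it (log2 0.02, SE 0.11, adjusted p = 0.937). FOXH1 was lower in KO2 by log2 -0.46 (adjusted p = 0.00151) and did not pass in KO1 (log2 -0.11, adjusted p = 0.422). TDGF1 was lower in KO2 by log2 -0.35 (adjusted p = 0.0153), a call lost without WT day 4 replicate 1 (adjusted p = 0.168), KO2 day 4 replicate 1 (0.069) or KO2 day 4 replicate 2 (0.0909). In KO1 TDGF1 gave log2 -0.26 and did not pass (adjusted p = 0.0807), but it passed without KO1 day 0 replicate 1 or 2 (0.00262 and 0.00257). Of the 8 members, 1 was higher and 2 were lower in KO1, and 2 were higher and 5 lower in KO2. Over all tested features 10.5% were higher and 9.42% lower in KO1, and 13.5% were higher and 14.5% lower in KO2.

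**Figure D3:**
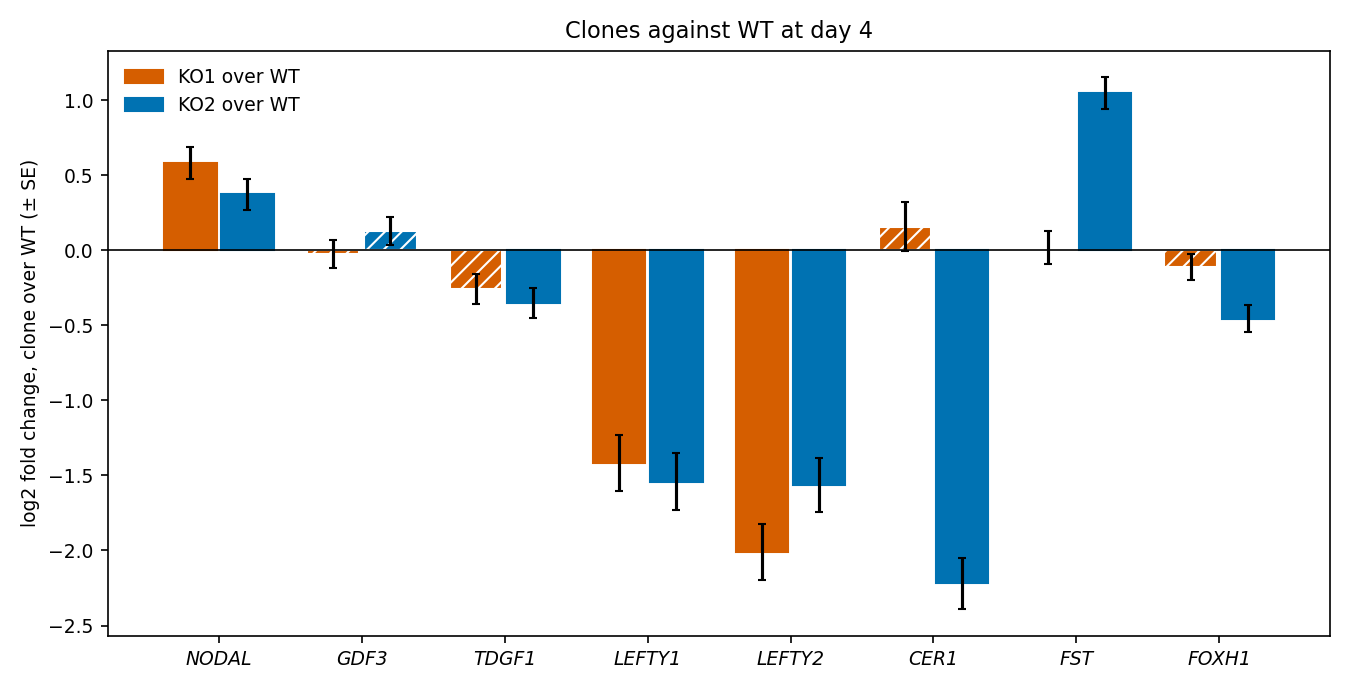
Log2 fold change of each gene in KO1 and KO2 over WT at day 4 from the edgeR fit, with error bars of 1 SE; hatched bars have an adjusted p of 0.05 or more. Both clones are below WT in LEFTY1 and LEFTY2 and above it in NODAL, while the bars of CER1 and FST that pass are those of KO2, at log2 -2.22 and 1.05.

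KO2 set directly against KO1 at day 4 gave 3 calls among the members, 1 higher and 2 lower, where 10.8% of tested features were higher and 14.3% lower. CER1 was 5.19-fold lower in KO2 than in KO1 (log2 -2.37, SE 0.17, adjusted p = 1.2e-07) and FST 2.04-fold higher (log2 1.03, SE 0.11, adjusted p = 4.63e-06). FOXH1 was lower by log2 -0.34 (adjusted p = 0.0111), which did not hold without KO1 day 4 replicate 1 (adjusted p = 0.0901), KO1 day 4 replicate 2 (0.0525) or KO2 day 4 replicate 1 (0.105). LEFTY2 gave log2 0.45 and NODAL log2 -0.21, and neither passed in the fit to all libraries (adjusted p = 0.0897 and 0.161). With only the libraries compared, both passed. Both passed without KO1 day 0 replicate 1 (adjusted p = 0.00102 and 0.0281) and without KO1 day 0 replicate 2 (0.00101 and 0.0277), libraries that are not among those compared.

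Markers of cell state also differed between lines at day 4, and not alike in the 2 clones. The 6 endoderm markers were all lower in KO2 than in WT and 3 of 6 were lower in KO1, with the sums given above. The sum of the 5 pluripotency genes was 1169 to 1236 CPM in KO1, 1704 to 1792 CPM in KO2 and 1061 to 1154 CPM in WT, and all 5 were higher in KO2 than in WT. In KO1, 1 of the 5 was called higher and 1 lower than in WT. ZFP42 averaged 300 CPM in KO1 and 176 in WT, and SOX2 77.9 and 112. The KO2 sum at day 4 was above its day 0 range of 1618 to 1695 CPM. Of its 5 genes 2 rose and 1 fell, and SOX2 went from a mean of 223 CPM at day 0 to 167 at day 4. The 4 mesoderm markers (MESP1, TBX6, HAND1 and PDGFRA) summed to 36.2 to 39.6 CPM in KO1, 8.77 to 9.95 CPM in KO2 and 14.4 to 16.5 CPM in WT. The neuroectoderm list (PAX6, SOX1 and OTX2, the last of which is also expressed in endoderm) summed to 187 to 202, 93.3 to 107 and 249 to 276 CPM in the same lines. OTX2 made up most of this sum, with means of 189 CPM in KO1, 90.3 in KO2 and 255 in WT. SOX1 was highest in KO2, with means of 5.68 CPM in KO1, 9.52 in KO2 and 6.71 in WT. The trophoblast list (CDX2, GATA3, KRT7 and CGA) stayed at 2.97 to 4.54 CPM, with CDX2 at 0 counts in KO1 and CGA at 1 or 0 counts in every day 4 library. The part of these markers in the differences of the members was not tested.

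Before differentiation no difference between lines was called by edgeR, with 0 of 8 members past the adjusted threshold in KO1 against WT, KO2 against WT or KO2 against KO1. Of all tested features 0.238%, 0.143% and 0.0119% were called in these 3 comparisons. At an unadjusted p under 0.05 edgeR gave 3, 4 and 3 of the 8 members, and DESeq2 gave 3, 4 and 3 unadjusted and 1, 0 and 0 adjusted. The means of NODAL and GDF3 were lower and that of FST higher in both clones than in WT, short of the adjusted threshold. NODAL was log2 -0.48 in KO1 and -0.62 in KO2 relative to WT, GDF3 -0.61 and -0.39, and FST 0.65 and 0.61 (adjusted p = 0.489 and 0.887, 0.053 and 0.713, and 0.0871 and 0.235). FST had 11.8 and 13.4 CPM in KO1, 11.5 and 13.1 in KO2 and 8.43 and 7.77 in WT, so every clone library was above both WT libraries. Without KO1 day 0 replicate 1, 5 members were called in KO1 against WT, with FST at adjusted p = 0.00149 and GDF3 at 0.00315, and KO1 was then represented only by the library that stood apart. In KO2 against KO1 the same omission gave 3 calls, TDGF1, LEFTY1 and LEFTY2, all lower in KO2. LEFTY1 and LEFTY2 varied 3.53-fold and 2.64-fold between the KO1 day 0 libraries and CER1 5.04-fold between the KO2 day 0 libraries, in each case more than the difference of that gene between any pair of lines at day 0.

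The change between days was then compared between lines, as the difference of the log2 changes. NODAL gained more in both clones than in WT, by log2 1.06 in KO1 (SE 0.24, adjusted p = 0.012) and 1.00 in KO2 (SE 0.27, adjusted p = 0.022) by edgeR. WT day 0 replicate 1 had the highest NODAL level of day 0, and without it the differences were log2 0.68 and 0.61 and did not pass (adjusted p = 0.111 and 0.156). LEFTY2 gained less in KO1 than in WT, by log2 -2.46 (SE 0.41, adjusted p = 0.00175), and this held under every alternative, at log2 -1.56 without KO1 day 0 replicate 2. LEFTY1 gained less in KO1 by log2 -1.87 (adjusted p = 0.0201), but by log2 -0.64 without that library (adjusted p = 0.394), and it missed the threshold without either WT day 0 library, WT day 4 replicate 2 or KO1 day 4 replicate 1 (0.0607 to 0.102) and by DESeq2 (0.0947). The NODAL difference in KO2 also missed the threshold without KO2 day 0 replicate 1 or 2, WT day 4 replicate 2 or KO2 day 4 replicate 2 (adjusted p = 0.0569 to 0.127). In KO2 neither LEFTY1 (log2 -0.56) nor LEFTY2 (log2 -0.83) passed in its change against WT (adjusted p = 0.643 and 0.359). CER1 gained less in KO2 than in WT, by log2 -3.38 (SE 0.53, adjusted p = 0.000704), or log2 -1.78 without KO2 day 0 replicate 1 (adjusted p = 0.0566), and less than in KO1 by log2 -3.71 (adjusted p = 0.000257), or log2 -2.10 without the same library. FST gained more in KO2 than in KO1 by log2 1.07 (SE 0.17, adjusted p = 0.000857), which held under every alternative. In all, 5 members differed between KO1 and WT, 3 between KO2 and WT and 3 between KO2 and KO1, where 9.8%, 13.9% and 10.4% of tested features did.

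The balance of ligand and antagonists was read as NODAL reads per read of each antagonist in the same library, a ratio that does not depend on scaling between libraries. Its size depends on the lengths of the genes, so it is compared only across libraries. At day 4 there were 6.37 and 4.81 NODAL reads per LEFTY2 read in KO1, 3.29 and 3.67 in KO2 and 1.10 and 0.757 in WT. Per LEFTY1 read there were 3.75 and 2.84 in KO1, 2.86 and 3.24 in KO2 and 0.958 and 0.686 in WT. All 4 clone libraries thus had more NODAL per LEFTY than either WT library. Per CER1 read the values were 0.103 and 0.102 in KO1, 0.395 and 0.544 in KO2 and 0.0792 and 0.0735 in WT, so KO2 stood far above both KO1 and WT. Per FST read they were 10.6 and 9.36 in KO1, 4.42 and 4.03 in KO2 and 7.29 and 6.15 in WT, where KO1 was the highest line and KO2 the lowest.

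A summary over all of these, the mean log2 CPM of NODAL and GDF3 minus that of LEFTY1, LEFTY2, CER1 and FST, was -0.27 and -0.45 in KO1, -0.15 and -0.12 in KO2 and -1.32 and -1.58 in WT at day 4. At day 0 it was 1.11 and 0.15 in KO1, 0.80 and 1.11 in KO2 and 1.39 and 1.32 in WT. This summary fell in each line, with day 4 minus day 0 differences of -0.99 in KO1, -1.08 in KO2 and -2.81 in WT. The KO1 difference was -1.464 when the second KO1 library of day 0 was left out and -0.5115 when the first was, alternatives chosen after the data were seen. With NODAL and GDF3 as ligands and only LEFTY1 and LEFTY2 as antagonists, the differences were -0.168 in KO1, -1.393 in KO2 and -2.871 in WT. With NODAL as the only ligand, the ratio did not fall against every antagonist. The mean log2 NODAL per CER1 fell from 1.37 to -3.28 in KO1, 0.35 to -1.11 in KO2 and 1.64 to -3.71 in WT. Per LEFTY2 it rose from 0.02 to 2.47 in KO1 and 0.80 to 1.80 in KO2. In WT it fell from 0.70 to -0.13. Per LEFTY1 the means moved the same ways, though the KO2 libraries of both days overlapped. The KO1 starting means rest on libraries that differ. At day 0 KO1 replicate 1 had log2 0.78 per LEFTY2 and 1.38 per LEFTY1. Replicate 2, the library that stood apart, had -0.74 and -0.52. The KO1 day 4 libraries had 1.91 and 1.51 per LEFTY1, so the rise is smaller without that library. Per FST the mean rose in every line. At day 4 the summary was above WT by 1.09 in KO1 and 1.32 in KO2, larger than the spread within any pair of day 4 libraries. With LEFTY1 and LEFTY2 alone as antagonists it was 0.68 ± 0.24 in KO1, 0.48 ± 0.02 in KO2 and -1.32 ± 0.30 in WT at day 4 (SD, n = 2 each). These scores over chosen genes carry no test, and 2 libraries against 2 cannot reach 0.05 in an exact permutation test.

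**Figure D4:**
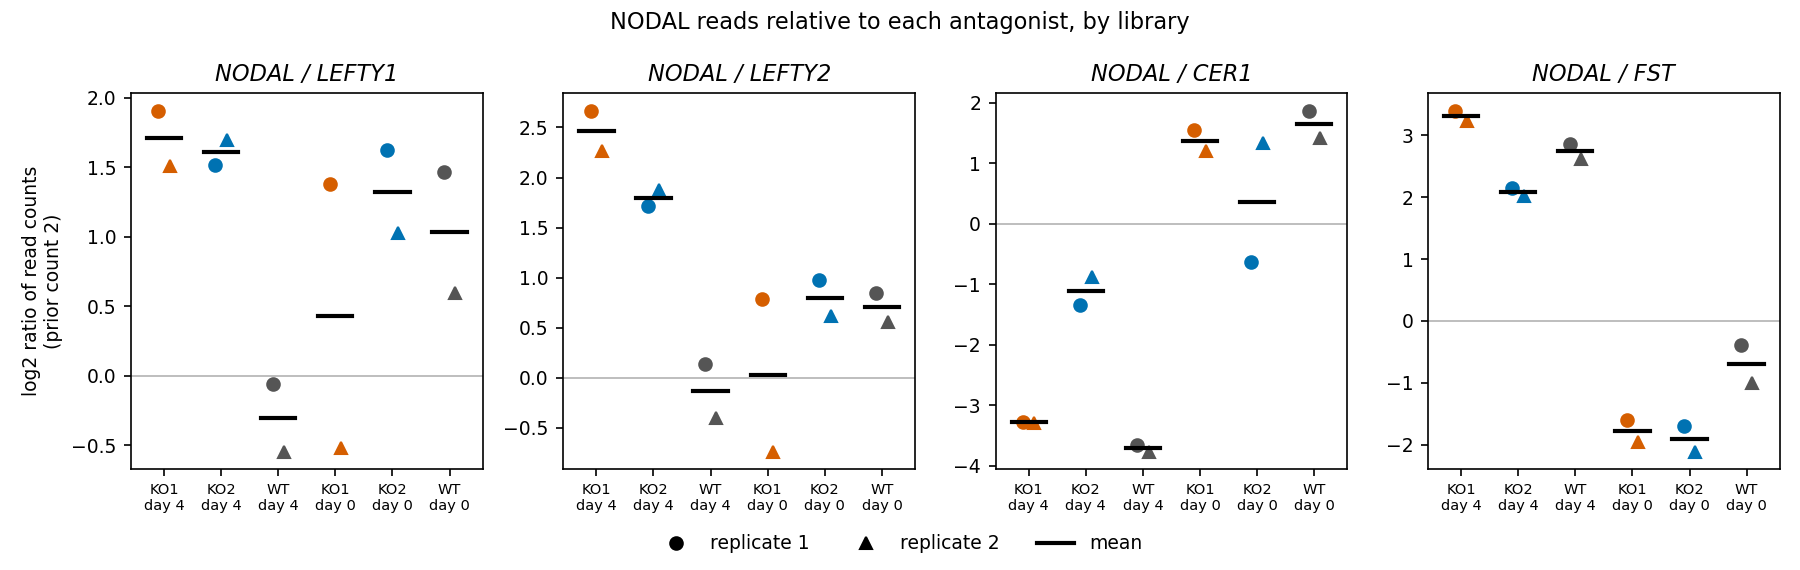
Log2 ratio of NODAL reads to reads of LEFTY1, LEFTY2, CER1 and FST in every library (prior count 2), for KO1, KO2 and WT at day 4 and then at day 0; circles are replicate 1, triangles replicate 2, bars the mean and the grey line equal reads. The day 4 clone libraries lie above the day 4 WT libraries for LEFTY1 and LEFTY2, and for CER1 the day 4 means are -3.28 in KO1, -1.11 in KO2 and -3.71 in WT.

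LEFTY1 and LEFTY2 are neighbouring genes of nearly the same coding sequence, and reads common to both may have been set aside or split by the counting. Their split was steady within a line at day 4, and KO1 had the higher LEFTY1 share. LEFTY1 held 62.9% (60.9% to 64.9%) and 62.9% (61.3% to 64.4%) of the LEFTY reads in KO1 (95% Wilson intervals, which cover counting error only). In KO2 it held 53.5% (51.7% to 55.2%) and 53.1% (51.5% to 54.7%), and in WT 53.5% (52.4% to 54.5%) and 52.5% (51.6% to 53.3%). The KO1 intervals lie above those of KO2 and WT, which overlap each other. At day 0 the shares ran from 37.9% in a KO2 library to 49.3% in a WT library, on 29 to 236 reads each, and their intervals overlap. With LEFTY1 and LEFTY2 reads summed into 1 feature, the day 4 differences from WT were log2 -1.67 in KO1 and -1.55 in KO2 (adjusted p = 6.2e-05 and 6.33e-05, edgeR). KO2 and KO1 then differed by log2 0.12 (adjusted p = 0.736).

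**Figure D5:**
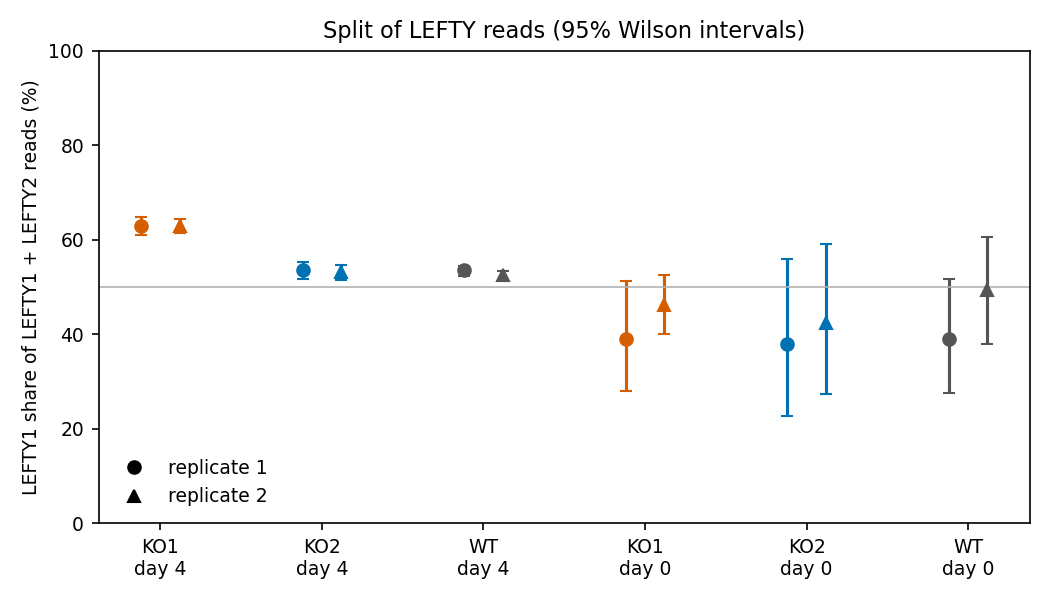
Share of LEFTY1 in the summed LEFTY1 and LEFTY2 reads of each library, in percent with 95% Wilson intervals, for KO1, KO2 and WT at day 4 and then at day 0; circles are replicate 1, triangles replicate 2 and the grey line equal shares. Both KO1 day 4 libraries are at 62.9%, above the 4 other day 4 libraries, and the wide day 0 intervals reflect few reads.

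TDGF1 has a near-identical relative on the X chromosome, TDGF1P3 (CRIPTO3), whose reads may be confused with its own. TDGF1 had 1.29 to 1.35 reads per TDGF1P3 read over the 12 libraries, a narrow range that spans all lines and both days. The TDGF1P3 profile differed from that of TDGF1 by a root mean square of only 0.0211 (log2) over the 12 libraries, and counts of the 2 genes are therefore reported as uncertain. Summed into 1 feature, an alternative chosen after seeing the data, they gave log2 -0.25 in KO1 and -0.35 in KO2 against WT at day 4 (adjusted p = 0.0729 and 0.0114, edgeR).

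Other genes of the pathway were read from a list of 40, of which 34 were tested. Between day 4 and day 0, 21 rose and 2 fell in KO1, 22 rose and 2 fell in KO2, and 21 rose and 2 fell in WT, with medians of log2 0.46, 0.41 and 0.40. Over all tested features 29.1% were higher and 29.3% lower in KO1, 25% and 25.7% in KO2, and 24.3% and 25.4% in WT. The Nodal-responsive transcription factors GSC, EOMES, MIXL1, LHX1, T and NANOG, the last also among the pluripotency genes, rose in every line. Of the intracellular brakes, which SMAD2 and SMAD3 induce or which damp them, PMEPA1 rose by log2 2.74 in KO1, 2.56 in KO2 and 2.34 in WT and the inhibitory SMAD7 by 1.78, 1.94 and 1.79. Of the 10 brakes 6 rose and 2 fell in KO1, 8 rose and 2 fell in KO2, and 5 rose and 2 fell in WT. Those that fell were TGIF2 and DRAP1. FURIN, a protease that matures the NODAL precursor, rose by log2 0.75, 0.53 and 1.15 in the same lines. GDF1, a ligand that pairs with NODAL in mouse and zebrafish embryos (as the zebrafish relative Vg1), had 0 counts in every library, and CFC1, the other EGF-CFC co-receptor, had 0 to 5 reads per group.

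Against WT at day 4, 7 of these 34 genes were higher and 3 lower in KO1, and 5 higher and 7 lower in KO2. The shares of all tested features were 10.5% higher and 9.42% lower in KO1, and 13.5% higher and 14.5% lower in KO2. The genes lower in KO2 include TDGF1P3, whose reads may be confused with those of TDGF1. The receptor gene ACVR1B (ALK4) had 51.9 ± 1.73 CPM in KO1, 54.2 ± 2.04 CPM in KO2 and 70.5 ± 6.61 CPM in WT, lower by log2 -0.44 in KO1 and -0.38 in KO2 (adjusted p = 0.00479 and 0.00824, edgeR), while ACVR1C, ACVR2A and ACVR2B were not called. FURIN was lower by log2 -0.41 in KO1 and -0.62 in KO2 (adjusted p = 0.0069 and 0.000184). Of the brakes, SMURF2 was higher and DRAP1 lower in KO1, by log2 0.30 and -0.33, and TRIM33 and NEDD4L were higher in KO2, by log2 0.35 and 0.29. PMEPA1 and SMAD7 were called in neither clone, PMEPA1 with log2 0.21 and 0.01 and SMAD7 with log2 -0.24 and 0.07 (adjusted p = 0.107 and 0.964, and 0.134 and 0.652). GREM1, an antagonist of BMP ligands, was higher in KO1 by log2 1.58 and in KO2 by log2 0.66. Of these 6 responsive factors, 3 were higher and 0 lower in KO1, MIXL1 and T the most at log2 1.29 and 1.05, and 2 were higher and 4 lower in KO2, LHX1 and GSC the most at log2 -2.85 and -2.58.

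The genes whose profiles over the 12 libraries were most like each member's were found among 15518 other named genes by the root mean square difference of log2 CPM, each profile centred on its own mean. All of these profiles share the same libraries and the large step between days. For NODAL they included FGF8 (0.614) and NPPB (0.632), the numbers being that difference in log2 units. For GDF3 they were MYOCD (0.185), PMEPA1 (0.199) and NETO2 (0.218), of which PMEPA1 is also a gene of the pathway list. LEFTY1 and LEFTY2 were each other's nearest profile, at 0.469, and FGF8, a secreted growth factor of the primitive streak, came next for both, at 0.670 and 0.657. The nearest to CER1 were FGF17 (0.821), EOMES (1.03) and GATA6 (1.04). The nearest to FST were LPAR6 (0.332), ALDH3A2 (0.336) and FGF3 (0.337), the last of them expressed below 1 CPM in the mean of each group. FOXH1 lay closest to ATP2B1 (0.0687), DVL2 (0.0749) and IQGAP3 (0.0770), and TDGF1, after TDGF1P3, to KIF3A (0.0715).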

How the data were processed

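The RNA-seq data are read counts per feature, 1 table per library, deposited by the authors. Reads were processed with Bowtie2 2.1.0 and HTSeq 0.6.1 on genome build hg19, per the submitters' processing notes. No source used here states the annotation, the strand setting or the minimum mapping quality. HTSeq's rows for unassigned reads were left out, with 29.2% to 30.5% of a library's reads in no feature. A further 19.3% to 22.2% were set aside as too low in alignment quality.

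Libraries were grouped by line and day from the labels. The counts were fitted with edgeR 4.0.16 (R 4.3.3): TMM scaling, filterByExpr by group, 1 quasi-likelihood model of 6 groups with 6 residual degrees of freedom, and Benjamini-Hochberg adjustment over all features tested. Log2 CPM used a prior count of 2. Total counts of 9942016 to 21394547 put 3 counts at 0.133 to 0.294 CPM. Intervals of shares cover counting error only. The alternatives were upper-quartile and RLE scaling, no filter, DESeq2 1.42.0, a replicate block, the compared libraries alone, and leaving out each library. The fit was tested on simulated counts. Promoter sequences are from RefSeq on GRCh38.p14, in which 5 of 8 members matched.

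The genes described, the pathway list and the marker lists were chosen with earlier results of these data known. Besides the members, named genes are those with the largest called changes of each pathway list, those a result turns on and, per member, the 3 nearest profiles. One gene of the pathway list is not reported here by name. ChIP-seq samples of the same series were not used here.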

Additional observations from a re-analysis of the deposited data

Results flagged for a closer look

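For 6 members, and for LEFTY1 and LEFTY2 summed, the change between day 4 and day 0 differed between lines by edgeR's interaction test, with p values adjusted over all features. In KO1 against WT the differences were 1.06 for NODAL (adjusted p = 0.012), 0.58 for GDF3 (0.026), -1.87 for LEFTY1 (0.0201), -2.46 for LEFTY2 (0.00175), -0.63 for FST (0.036) and -2.11 for summed LEFTY1 and LEFTY2 counts (0.0055), all in log2 units. The GDF3 difference missed the threshold without WT day 0 replicate 2 or without any 1 of the WT or KO1 day 4 libraries (adjusted p = 0.0647 to 0.182), and the FST difference without any 1 WT or KO1 library other than KO1 day 0 replicate 1 (0.0528 to 0.158). Both also missed it with only the libraries compared (0.0665 for GDF3 and 0.0604 for FST), as did LEFTY1 (0.0528). The LEFTY sum gave -1.08 without KO1 day 0 replicate 2. The GDF3 and FST differences are those of genes that stood at like levels in KO1 and WT at day 4 and at different means at day 0, with GDF3 lower and FST higher in KO1.

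In KO2 against WT the differences were 1.00 for NODAL (0.022), 0.51 for GDF3 (0.0442) and -3.38 for CER1 (0.000704). The GDF3 difference missed the threshold without WT day 0 replicate 2, either KO2 day 0 library or any 1 day 4 library (adjusted p = 0.064 to 0.25), by DESeq2 (0.0894) and without a filter on low counts (0.067). In KO2 against KO1 they were 1.63 for LEFTY2 (0.0388), -3.71 for CER1 (0.000257) and 1.07 for FST (0.000857). The LEFTY2 difference between the clones was 0.71 without KO1 day 0 replicate 2 (adjusted p = 0.307), and it missed the threshold without any 1 WT day 0, KO2 day 0 or KO2 day 4 library or without KO1 day 4 replicate 1 (0.058 to 0.172), by DESeq2 (0.0905) and with only the libraries compared (0.0772).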

How the results depend on the processing

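Of the alternative values for single genes, 1609 kept their direction and their side of the threshold, 63 fell short of it, 44 newly passed it and 24 turned direction. Every difference of LEFTY1, LEFTY2, CER1 and FST called between lines at day 4 kept its call under every alternative. The number of members called in KO2 against KO1 at day 4 was 5 with only the libraries compared and 2 to 5 with 1 library left out, against 3. At day 0 it was 2 without a filter, 1 with the replicate block and 1 by DESeq2 in KO1 against WT, 1 without a filter in KO2 against WT and 3 without a filter in KO2 against KO1, each against 0, and with 1 library left out 0 to 5 and 0 to 3 in the comparisons with KO1. For the difference of changes it was 2 in KO1 against WT and 5 in KO2 against WT with only the libraries compared, against 5 and 3, and 2 to 6 and 0 to 5 with 1 library left out. Summed LEFTY counts without a filter gave -0.84 in KO2 against WT and -1.29 in KO2 against KO1 at day 0 (adjusted p = 0.0305 and 3.46e-09), and for the changes -0.70 and 1.41 (0.0271 and 2.95e-10). With 1 library left out they ran over -0.597 to 0.983 in KO1 against WT and -1.82 to -0.244 in KO2 against KO1 at day 0, -0.0501 to 0.311 in KO2 against KO1 at day 4, and -2.66 to -1.08 and 0.353 to 1.93 for the changes of KO1 against WT and of KO2 against KO1. With LEFTY1 and LEFTY2 as the only antagonists the balance differed by -0.168 between days in KO1 and -1.393 in KO2, by 1.996 in KO1 and 1.793 in KO2 against WT and -0.203 in KO2 against KO1 at day 4, by 0.315 in KO2 against WT and 1.021 in KO2 against KO1 at day 0, and by 2.703, 1.478 and -1.225 for the 3 differences of changes. Chosen after seeing the data, leaving out KO1 day 0 replicate 2 gave -0.9831 between days in KO1, 1.888 and -0.4095 for the changes of KO1 against WT and of KO2 against KO1, and 0.1087 in KO1 against WT and 0.2063 in KO2 against KO1 at day 0. Leaving out KO1 day 0 replicate 1 gave 0.6473, 3.518, -2.04, -1.522 and 1.837. With all 4 antagonists the same 5 differences were -1.464, 1.344, 0.3802, -0.2496 and -0.1557 without replicate 2. Fits to fewer libraries use a spread estimated from fewer samples, and a group left with 1 library is assumed to vary like the others. The cause of the other shifts was not tested.

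Single genes that turned direction were not called with all libraries and TMM scaling. FST in KO1 against WT at day 4 was -0.0082 with upper-quartile scaling. The lowest and highest log2 values below are those with 1 library left out. In KO1 day 4 vs KO1 day 0 they were TDGF1 -0.22 to 0.11. In KO2 day 4 vs KO2 day 0 they were TDGF1 -0.0803 to 0.002026. In KO1 vs WT at day 4 they were FST -0.05158 to 0.08034, GDF3 -0.07744 to 0.018. In KO2 vs KO1 at day 4 they were LEFTY1 -0.29 to 0.07164. In KO1 vs WT at day 0 they were FOXH1 -0.09892 to 0.11, TDGF1 -0.11 to 0.22, LEFTY1 -0.78 to 1.03, LEFTY2 -0.46 to 0.94. In KO2 vs WT at day 0 they were FOXH1 -0.18 to 0.02576, TDGF1 -0.11 to 0.01919, CER1 -0.45 to 1.87. In KO2 vs KO1 at day 0 they were TDGF1 -0.27 to 0.05822, FST -0.14 to 0.05875, CER1 -0.27 to 2.05. In KO2 change minus KO1 change they were NODAL -0.18 to 0.0593, TDGF1 -0.16 to 0.17, GDF3 -0.15 to 0.00441.

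The replicate numbers were not used as pairs in the main fit. The difference of replicate 1 and replicate 2 in log2 CPM was correlated between groups. Of 15 correlations 1 was over 0.1 (-0.0403 to 0.155), and such weak values cannot exclude a shared batch. With the replicate block FST passed in KO1 against WT at day 0 (0.65, adjusted p = 0.0479), LEFTY2 in KO2 against KO1 at day 4 (0.46, 0.0377), FOXH1 in the change of KO2 against WT (0.0435) and summed LEFTY counts in the change of KO2 against KO1 (1.39, 0.0452), and no other call changed.

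Counts over all features moved too. At day 4, 3337 features were called in KO1 against WT, 5109 with only the libraries compared and 1353 to 5228 with 1 left out. The like counts were 4697 and 2492 to 6596 in KO2 against WT, and 4214, 6748 and 2146 to 6120 in KO2 against KO1. At day 0 they were 40 in KO1 against WT (383 without a filter, 12 with only the libraries compared, 9 to 3787 with 1 left out), 24 in KO2 against WT (113, 105, 2 to 120; DESeq2 36) and 2 in KO2 against KO1 (71, 0, 0 to 2746). For differences of changes they were 1645 (853 with only the libraries compared, 607 to 4513 with 1 left out) in KO1 against WT, 2329 (4098, 1210 to 4245) in KO2 against WT and 1754 (893 to 3730 with 1 left out) in KO2 against KO1. At day 0 LEFTY1, LEFTY2, CER1 and NODAL rest on few reads, which limits any comparison there.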
